A study of Monodelphis domestica and Mus musculus with 2 samples.

Results

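Oligodendrocytes of mouse primary visual cortex (V1) were the 481 cells that passed the authors' filter, carried the subclass label OD and carried the class label nonneuronal. They made up 5.27% (exact 95% binomial interval 4.82 to 5.75) of the 9127 labelled V1 cells, and those V1 cells were part of 120239 segmented mouse cells and 200608 segmented cells in the whole series. Region 1 held 194 of the oligodendrocytes among 3550 cells (5.47%), and region 2 held 66 among 1573 (4.2%). Region 3 held 109 among 1908 (5.71%), and region 4 held 112 among 2096 (5.34%). The comparison cells were 429 astrocytes of all depths, with the label Astro and nonneuronal class, and 1081 deep glutamatergic neurons. These neurons had L5 or L6 labels and lay between the depth quartiles of the oligodendrocytes of their own region. Of them 778 were L6CT cells, the corticothalamic neurons of layer 6, and 241 were L6IT cells, whose axons stay within the telencephalon.

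The mouse was 1 adult wild-type C57BL/6J male at about postnatal day 40, with no transgene and no treatment. Coronal slices of its brain were frozen in 1 block, and a 10-µm section of that block was placed on a Stereo-seq chip, which captures polyadenylated RNA on a dense array of barcoded spots so that each molecule (UMI) keeps its position. The authors outlined 4 V1 regions, summed UMIs over segmented cell outlines, and named each cell from its nearest neighbours in a mouse single-nucleus RNA-seq atlas. The same series has an opossum section, which was not used here.

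Oligodendrocytes make myelin, the multilayered membrane that wraps axons and speeds conduction. The membrane is rich in cholesterol and galactolipids and is packed by a few very abundant proteins, among them myelin basic protein (Mbp). In the cortex myelin is densest in the deep layers, next to the white matter. Mbp mRNA is carried along the processes and translated at the myelin sheath.

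The oligodendrocytes together held 684059 UMIs, the astrocytes 531281 and the deep glutamatergic cells 1816044. The median cell held 1393 UMIs (quartiles 1048 and 1797) and 900 genes among oligodendrocytes, 1147 UMIs and 766 genes among astrocytes, and 1654 UMIs and 1024 genes among the neurons. All levels below are UMIs of a gene per 10000 UMIs of all genes, summed over the cells of a group, with exact 95% intervals that cover counting error only. With 1 mouse there was no biological replicate and no test between groups. For some of the differences the values in the 4 regions are given beside them, and for others they are not. Levels of different genes were not corrected for transcript length, and so genes were compared with themselves across cells and not with each other. Because labels were given from expression, a gene that separates oligodendrocytes from other cells describes the label. Position played no part in labelling, although it bears on which RNA reaches a cell outline from its neighbours.

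The myelin genes, which the labelling could use, were high in the cells so labelled. Summed over 11 oligodendrocyte genes (Mbp, Mobp, Mag, Mog, Cnp, Cldn11, Mal, Pllp, Opalin, Ermn and Tspan2), the level in oligodendrocytes was 53.2 (51.5 to 54.9), against 18.1 (17.0 to 19.3) in astrocytes and 21.4 (20.7 to 22.04) in deep glutamatergic cells. The oligodendrocyte level was 47.8, 52.9, 68.4 and 47.9 in regions 1 to 4, the astrocyte level 20.9, 14.9, 15.9 and 17.4, and the neuronal level 20.4, 19.2, 22.6 and 24.2. Every oligodendrocyte value therefore stood above every value of the other cells, with region 3 the highest. The fold was 2.94 (2.73 to 3.15) over astrocytes and 2.49 (2.38 to 2.61) over the neurons. Cells without the oligodendrocyte label also held UMIs of these genes, at a level that was not the same at all depths. The source of those UMIs was not tested.

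Mbp, whose product holds the cytoplasmic faces of the sheath together, stood at 20.5, 24.4, 31.7 and 21.6 in the oligodendrocytes of regions 1 to 4, at 11, 6.71, 8.72 and 8.85 in astrocytes, and at 10.4, 10.0, 11 and 12.9 in the neurons. Oligodendrocytes overlapped neither group, and the folds were 2.55 (2.30 to 2.82) and 2.19 (2.05 to 2.34). Mobp (GRCm39 chr9:119973770-120011273), a small basic protein of compact myelin, had 8.50, 8.70, 12.0 and 8.52 in oligodendrocytes and lay between 2.07 and 4.97 in every region of the other cells. Its folds were 3.00 (2.53 to 3.59) and 2.21 (1.99 to 2.46). Mag (chr7:30598464-30614474), an adhesion molecule of the innermost myelin layer that faces the axon, was at 4.68, 3.44, 4.94 and 2.92 in oligodendrocytes and between 0.524 and 1.31 elsewhere. With folds of 4.40 (3.25 to 6.06) and 3.89 (3.23 to 4.70), it separated the cells more sharply than Mbp at a lower level.

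**Figure D1:**
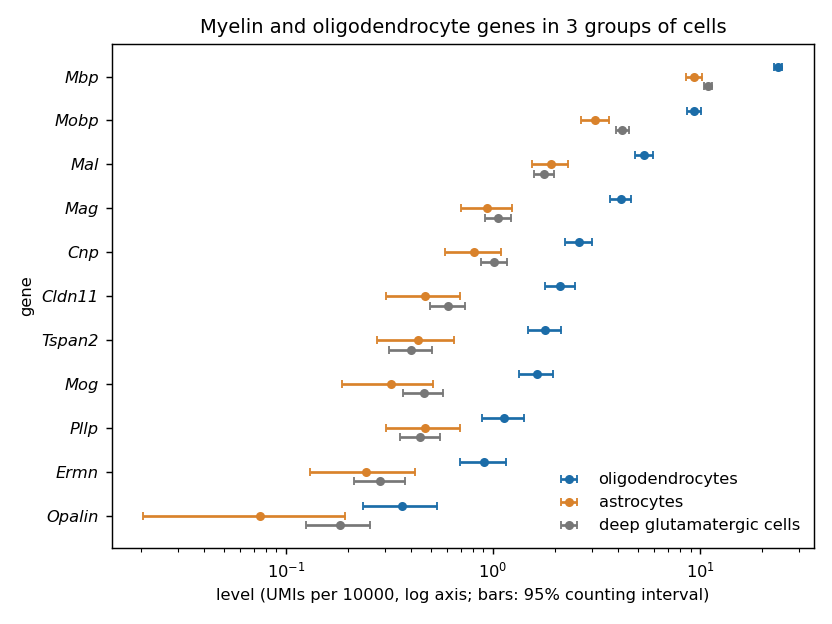
Levels of the 11 oligodendrocyte genes (UMIs per 10000 UMIs, log axis) over all oligodendrocytes, astrocytes and deep glutamatergic cells of mouse V1, with points for the level and bars for the exact 95% counting interval. Oligodendrocytes stand to the right in each gene, with Mbp at 23.8 and Mobp at 9.33, and the intervals meet those of the neurons in Opalin alone.

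Cells of every type held UMIs of the myelin markers, in shares that differed widely between markers. Mbp was seen in 83.4% (79.7 to 86.6) of oligodendrocytes, but also in 71.4% of deep glutamatergic cells and 51.8% of astrocytes. When each cell was thinned to 300 UMIs, which left out 4 oligodendrocytes, 10 astrocytes and 6 neurons, the shares were 46.1%, 27.2% and 20.5%. Mobp was seen in 55.3%, 39.6% and 24.0% of oligodendrocytes, neurons and astrocytes before thinning and in 21.0%, 9.40% and 9.07% after it. Mag was seen less often, with 32.9%, 12.2% and 8.86% before and 10.3%, 3.16% and 3.58% after. Mog had 14.1%, 5.92% and 3.26% before and 5.03%, 1.21% and 0.477% after. Most oligodendrocyte outlines held no Mag or Mog UMI, so at this depth the absence of a marker in a cell did not separate the types. Slc17a7, the vesicular glutamate transporter of cortical excitatory neurons, was seen in 70.3% of oligodendrocytes and 75.5% of the neurons. How its UMIs came to lie in oligodendrocyte outlines was not tested.

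The remaining myelin proteins followed. Cldn11, the tight-junction claudin of myelin, had a level of 2.11 in oligodendrocytes, 0.471 in astrocytes and 0.606 in deep glutamatergic cells. Mog, a protein of the outer myelin surface, had 1.62, 0.320 and 0.463. Mal, a protein of membrane rafts, had 5.38, 1.90 and 1.77, and Cnp, the cyclic nucleotide phosphodiesterase of uncompacted myelin, had 2.60, 0.809 and 1.01. Across the 4 regions Mog ran from 1.16 to 1.88 in oligodendrocytes and from 0.210 to 0.620 in the other cells, with no overlap. Opalin, a myelin-paranode protein, was the exception among the 11 genes with 25 UMIs in all oligodendrocytes, and in region 1 its level of 0.150 lay under the 0.196 of the neurons.

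Lipid genes differed among themselves. Enzymes of myelin galactolipids were high in part, with Ugt8a, which joins galactose to ceramide, at 1.36 against 0.226 in astrocytes and 0.347 in deep glutamatergic cells. Its level in regions 1 to 4 was 1.09, 1.52, 1.56 and 1.52 in oligodendrocytes, and no region of the other cells exceeded 0.474. Fa2h, which hydroxylates the fatty acids of those lipids, was at 0.906 against 0.151 and 0.143, a fold of 6.02 (2.87 to 14.6) and 6.33 (3.95 to 10.4). Gal3st1, which adds sulfate to galactolipids, had 6 UMIs in oligodendrocytes, at 0.0877 against 0.0941 and 0.0385. Levels of some cholesterol enzymes were close in the 3 groups. Hmgcs1 had levels of 3.01, 2.90 and 2.79 in oligodendrocytes, astrocytes and neurons, and Sqle 0.687, 0.640 and 0.622, and oligodendrocytes were the higher in only 2 or 3 of the 4 regions for each. Scd2, the desaturase that makes monounsaturated fatty acids, lay between, at 7.53 against 4.8 and 4.14.

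Among regulators, Myrf, the transcription factor needed for myelin gene expression, had 37 UMIs in oligodendrocytes, 2 in astrocytes and 15 in the larger pool of neurons, which are levels of 0.541, 0.0376 and 0.0826. Olig1, a lineage factor present from the precursor stage on, had 1.14, 0.546 and 0.457. Among genes of newly formed oligodendrocytes, Bcas1 had 2.35, 1.22 and 0.870, whereas Enpp6, Gpr17, Itpr2 and Rras2 had 15 UMIs or fewer each in oligodendrocytes. Genes of mature oligodendrocytes were better filled, and Trf, the iron carrier transferrin, was at 3.48, 4.75, 5.33 and 3.83 in regions 1 to 4, above the range of 0.719 to 1.44 in the other cells. Apod, a lipocalin, had a level of 3.96 against 1.68 in astrocytes and 1.29 in neurons, and Car2, carbonic anhydrase 2, had 3.54 against 1.62 and 1.31. Fth1, the heavy chain of the iron store ferritin, was high everywhere, at 31.4 against 19.3 and 20.6, and reads of its processed pseudogenes may be counted with it. Klk6, a protease of some mature oligodendrocytes, had 5 UMIs.

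Markers of other cells were present in the oligodendrocyte outlines, and their part in the differences was not tested. Summed over the 11 glutamatergic markers the level was 83.5 in oligodendrocytes, 84.2 in astrocytes and 93.5 in deep glutamatergic cells. Over the 18 astrocyte markers it was 59.1, 90.4 and 47.0, so that oligodendrocytes lay nearer to the neurons than to the astrocytes. Over the 9 microglial markers it was 4.08, 3.99 and 2.77, over the 7 endothelial markers 7.002, 7.28 and 5.33, and over the 3 GABAergic markers 3.29, 3.22 and 2.83. The 7 genes of oligodendrocyte precursors summed to 3.93, 7.62 and 3.95, and Pdgfra, the growth factor receptor that defines precursors, was at 0.190, 0.245 and 0.198. Of the mural and meningeal markers, Acta2 and Dcn had 0 UMIs in oligodendrocytes. Slc1a2, the main glutamate transporter of astrocytes, ran from 11.9 to 15.1 over regions in oligodendrocytes, from 19.4 to 24.2 in astrocytes and from 11.4 to 12.4 in neurons.

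Across all genes the oligodendrocytes were then set against the astrocytes, with a gene called where its level differed at least 2-fold over all cells and in the same direction in each of the 4 regions. Among the 5481 genes with at least 50 UMIs in both groups together, 70 were higher in oligodendrocytes (1.28%) and 109 were lower (1.99%). Since the same UMIs gave the labels, these counts describe the label. The astrocytes were also not matched for depth. On a scale from 0 at the top of L2/3 to 1 at the bottom of L6 their median was 0.441, against 0.843 in oligodendrocytes. The part of depth in the calls was not tested. Of the 11 oligodendrocyte genes 10 had enough UMIs, and all 10 were among the higher ones, with a median fold of 3.46 beside 1.01 over all genes measured. Of the other lists, 2 of 9 lipid genes, 5 of 10 genes of mature cells and 5 of 11 genes for adhesion, channels and cytoskeleton were higher. The largest fold was that of Prr5l, which encodes a partner of the mTORC2 kinase complex, with 0.819 against 0.132 (6.21, 2.83 to 16.2). It was followed by Ugt8a and Fa2h, by Gsn, the actin-severing protein gelsolin (1.10 against 0.207), and by St18, a zinc-finger transcription factor (0.892 against 0.169). St18 ran from 0.303 to 1.20 over the regions in oligodendrocytes and from 0.105 to 0.270 in astrocytes. Phldb1 followed after Mog and Cldn11 with 4.45 (2.33 to 9.36). Rprm, a gene of layer 6 neurons, was also called, at 3.76 against 1.45, and at 4.33 in the deep glutamatergic cells.

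The genes lower in oligodendrocytes than in astrocytes were led by astrocyte genes. Mertk, a receptor for engulfment of cell debris, had 6 UMIs in oligodendrocytes and a level of 0.0877 against 1.54 in astrocytes, a ratio of 0.0568 (0.0203 to 0.129). Gpc5, a glypican, was at 0.712, 0.405, 0.650 and 0.304 in regions 1 to 4 against 7.10, 5.45, 4.32 and 6.43, a ratio of 0.0911 (0.0633 to 0.128). Gli3, a transcription factor of hedgehog signalling, had a ratio of 0.0971, the ion channel gene Trpm3 of 0.201, and Dio2, whose enzyme activates thyroid hormone, of 0.210. Prex2, Sox6, Cables1, Npas3 and 4930488L21Rik lay between 0.145 and 0.194. Of the 16 astrocyte markers measured, 5 were called lower, among them Aqp4 with 14 UMIs in oligodendrocytes and 37 in astrocytes, and the median ratio was 0.614. Grm3, a glutamate receptor listed with mature oligodendrocytes, went against its list, with 0.658 in oligodendrocytes and 1.71 in astrocytes, and Ptprz1, listed with precursors, had 0.731 against 2.01.

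Against the deep glutamatergic cells, 118 of 8153 genes were higher in oligodendrocytes (1.45%) and 169 were lower (2.07%). Here the neuronal pool is larger and more genes passed 50 UMIs. These neurons lay between the depth quartiles of the oligodendrocytes, which were themselves of all depths. Of the 11 oligodendrocyte genes 10 were higher, Opalin not, with a median fold of 3.04 beside 1.00 over all genes. St18 had the largest fold, at 0.892 against 0.0716 (12.5, 6.77 to 24.7). Prr5l had 8.26 (4.78 to 14.9), Myrf 6.55 (3.51 to 12.8), Fa2h 6.33, Dock10, an activator of small GTPases, 5.61 (3.71 to 8.65), and Gab1, an adaptor of growth factor receptors, 5.31 (3.07 to 9.44). Galnt6, an enzyme of protein glycosylation, had 4.72 (2.57 to 8.93) and Pdlim2 4.58 (2.84 to 7.50). None of the 16 measured astrocyte markers was called, although their median fold was 1.38, and Cx3cr1, a microglial receptor, was the only one of 6 microglial genes called. Of the genes higher than in astrocytes 34 were also higher than in the neurons, which is 48.6% of the 70 and 28.8% of the 118. The comparisons share the oligodendrocytes, so this overlap is a count only. Rorb and Htra1 were called in opposite directions, higher than in the neurons and lower than in astrocytes.

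The genes lower in oligodendrocytes than in the neurons were led by Zfp804b, with 0.102 against 0.589 (0.174, 0.0682 to 0.370). Hdhd5, Maml3, N4bp3, Nxpe4, Stxbp5l, Gm50076 and Mgat4c had ratios of 0.190 to 0.254. Cdh18, a cadherin, was at 0.899, 0.809, 0.780 and 0.426 against 3.22, 3.69, 2.34 and 2.60 in regions 1 to 4, and Grm8, a presynaptic glutamate receptor, was at 0.409 against 1.55. Of the 11 glutamatergic markers measured, 2 were called lower and 1 was called higher in oligodendrocytes, with a median fold of 0.914. Among markers of deep layers, Foxp2, a transcription factor of layer 6, had 0.512 against 1.61, and Hs3st4, a heparan sulfate enzyme, had 1.37 against 4.75. Other neuronal genes barely differed, as Slc17a7 with 11.4 against 12.2 and Snap25, of the synaptic release machinery, with 22.5 against 23.7. The largest differences in level after Malat1 included Dpp10, a subunit of potassium channels, with 5.99 against 16.1, Dlg2, a synaptic scaffold, with 6.80 against 14.5, and Rbfox1, a splicing factor, with 4.31 against 11.2.

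Malat1, a long noncoding RNA that is kept in the nucleus (chr19:5845717-5853602), was among 10 genes lower than in both other groups. Its level was 15.3, 12.8, 15.9 and 13.8 in the oligodendrocytes of regions 1 to 4, 38.5, 34.4, 28.8 and 37.7 in astrocytes, and 35.2, 44.5, 25.7 and 19.2 in deep glutamatergic cells. Oligodendrocytes overlapped neither group, and the ratios were 0.414 (0.383 to 0.447) and 0.465 (0.435 to 0.497). Meg3, another noncoding RNA held in nuclei, did not follow, with 21.8 in oligodendrocytes, 21.8 in astrocytes and 24.99 in neurons. The summed level of the mitochondrially encoded genes was 223 in oligodendrocytes, 201 in astrocytes and 178 in neurons. Genes lower in oligodendrocytes were also long, with a median genomic length of 154400 bp against the neurons, beside 37640 bp for the higher genes and 32400 bp for all measured. Of the 169 lower genes 58.6% spanned over 100 kb, beside 19.99% of all measured, and against astrocytes it was 51.4% of the 109 lower genes beside 22.3%. Whether the outlines held less nuclear RNA was not tested.

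The myelin level differed between label rounds, though not in the same order in each region. Labels were given in 3 rounds, which required agreement among at least 100%, 75% and 50% of the 50 nearest atlas nuclei, and they named 134, 303 and 44 oligodendrocytes. The summed myelin level was 75.4 (71.7 to 79.4) in the first round, 45.4 (43.4 to 47.5) in the second and 34.4 (29.8 to 39.5) in the third. In region 2 the first round had 53.0 and the second 59.7, and in region 4 the second had 43.2 and the third 45.9, against the pooled order. These values rest on 20 and 37 cells in region 2 and on 78 and 11 cells in region 4. Just outside the label, 253 cells of nonneuronal class without a subclass had 23.9 (22.2 to 25.7), next to 22.65 in endothelial cells, 20.9 in precursors and 18.8 in microglia. Among neurons the level was 22.35 (21.7 to 23.0) in L6CT, 18.3 in L6IT and 12.4 in L2/3 cells. Since the labels use these genes, the order of the rounds is a description.

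A finer label named 237 of the oligodendrocytes OD_B, 56 OD_C and 7 OD_A, while 95 had none and 86 had the type of another subclass. OD_C cells had a myelin level of 97.9, OD_B cells 54.0, cells with the type of another subclass 38.7, cells with no type 37.8, and OD_A cells 33.6. OD_C cells had 83.1, 60.8, 126.9 and 80.2 in regions 1 to 4 and OD_B cells 50.4, 60.6, 56.9 and 51.9, so that the types hardly differed in region 2 and differed most in region 3. The OD_C cells numbered only 17, 7, 24 and 8 in these regions. Over all regions, all 11 genes of the list had a higher level in OD_C than in OD_B, but the intervals met for Mog, Pllp, Opalin, Ermn and Tspan2. The type labels also rest on expression, so these levels describe the label. Mbp had 43.9 against 23.1, Mag 8.64 against 4.14, Trf 10.4 against 4.23 and Cnp 5.96 against 2.27. Myrf had 0.365 (0.0753 to 1.067) against 0.846 (0.566 to 1.214), on 3 and 29 UMIs. Hmgcs1 had 2.31 (1.39 to 3.61) against 3.06 (2.50 to 3.71). Both were thus lower in OD_C, with intervals that meet. Bcas1, which marks newly formed cells, was at 5.11 in OD_C against 1.92 in OD_B, so the direction did not follow the division into newly formed and mature genes.

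**Figure D2:**
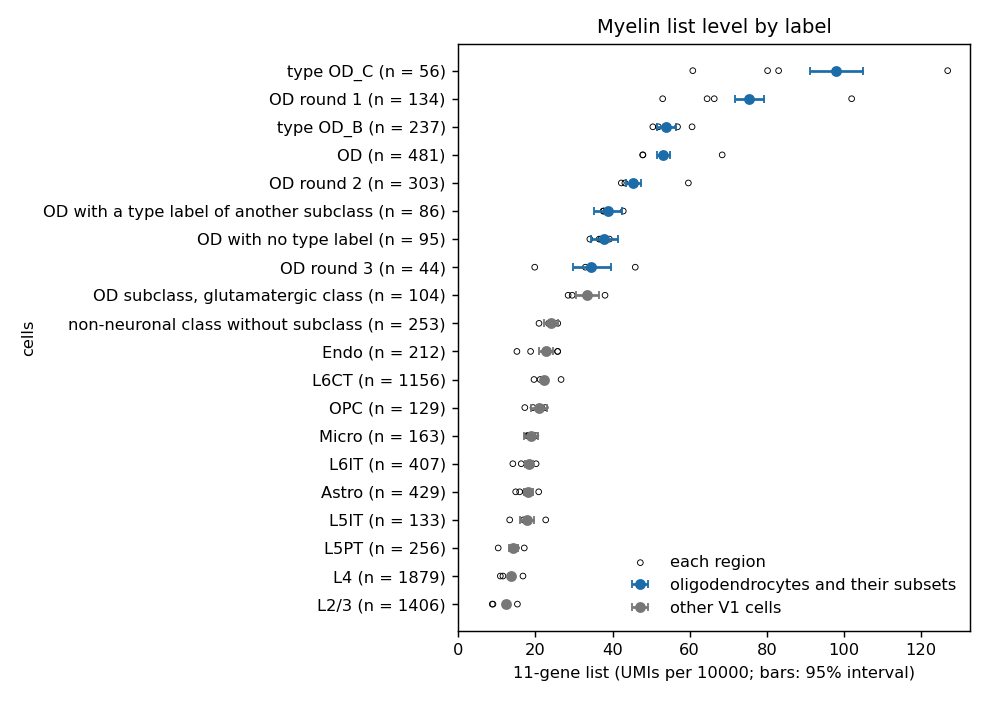
Summed level of the 11 oligodendrocyte genes (UMIs per 10000 UMIs) in oligodendrocytes by label round and type (blue) and in a choice of other labels (grey), with bars for exact 95% counting intervals and open points for each region. First-round and OD_C cells stand at 75.4 and 97.9, third-round cells at 34.4, and L6CT neurons at 22.35.

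The oligodendrocytes lay deep. On a scale from 0 at the top of L2/3 to 1 at the bottom of L6 their median depth was 0.843, and it was 0.791, 0.898, 0.888 and 0.840 in regions 1 to 4. Astrocytes had a median of 0.441 and all V1 cells one of 0.451, while L6CT neurons had 0.846. The deepest 20% of this scale, which leaves out layer 1, held 272 oligodendrocytes. That is 56.6% (52.0 to 61.0) of them, and 49.5%, 69.7%, 60.6% and 57.1% in the 4 regions. There they made up 14.7% of all cells, with 12.8%, 14.0%, 18.3% and 15.8% in the 4 regions, against 1.08% in the top 20% and 0.853% in the next. In steps of 10% of the depth their share was 1.62, 0.608, 0.570, 1.11, 2.36, 4.81, 6.97, 7.24, 8.97 and 20.7% of cells from top to bottom. The share thus rose from the middle of the scale downward and was highest in the last step. There region 3 had 31.4% and the others between 16.9% and 20.9%. Astrocytes stayed between 3.85% and 5.30% in the same 20% steps. Shares were of labelled cells, and the authors did not take cell densities from these data because transcripts might drop out. First-round cells were deeper than the rest, at a median of 0.931, and OD_C cells deepest at 0.974, while cells with no type lay at 0.681.

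**Figure D3:**
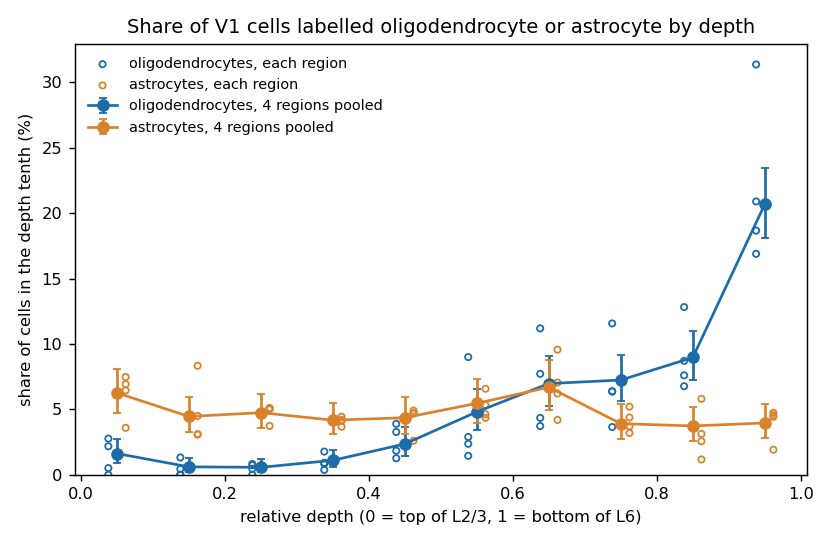
Share of V1 cells with the oligodendrocyte or astrocyte label (percent) in 10 steps of depth from the top of L2/3 (0) to the bottom of L6 (1), with filled points and lines for the 4 regions pooled, bars for exact 95% intervals and open points for each region. The oligodendrocyte share is 0.608% in the second step and 20.7% in the last, where region 3 stands apart at 31.4%, while the astrocyte share shows no such rise.

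Depth was not used for the labels, so the oligodendrocytes were divided at the median depth of their region into 240 lower cells (median depth 0.947) and 241 upper cells (0.655), with 343193 and 340866 UMIs. Mbp had a level of 25.6, 33.5, 47.8 and 26.6 in the lower cells of regions 1 to 4 and of 15.8, 14.97, 14.9 and 16.1 in the upper cells. The upper values were close to each other, and all lower values were above them, with region 3 the highest. The fold was 2.06 (1.86 to 2.29). Mobp had 12.5 against 6.16, a fold of 2.02 (1.71 to 2.40), and Trf 5.42 against 2.90, a fold of 1.87 (1.46 to 2.41). Mag had a fold of 1.39 (1.09 to 1.77), but in region 2 it had 2.99 in the lower and 3.90 in the upper cells. Cnp had 1.53 (1.12 to 2.10) and Mal 1.43 (1.15 to 1.77), each higher in the lower cells of 3 regions. Mog had 1.21 (0.820 to 1.80) and Tspan2 0.843 (0.580 to 1.22), so neither of these 2 differed beyond counting error.

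The label rounds and the other cells moved with depth too. Of the lower cells 39.2% had a first-round label, against 16.6% of the upper cells. All other V1 cells of the same depths had an Mbp level of 15.1 against 9.73, a fold of 1.55, and folds of 1.73 for Mobp and 1.75 for Apod, where oligodendrocytes also had 1.75. Oligodendrocytes exceeded these other cells in Mbp by 2.12-fold below and 1.60-fold above. Over the whole myelin list the lower cells had 67.1 and the upper 39.2, a fold of 1.71 (1.60 to 1.83), beside 1.46 in the other cells. The part of labels and of RNA from neighbours in the difference was not tested.

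Of 3214 genes with at least 50 UMIs in the oligodendrocytes, 24 were higher in the lower cells (0.747%) and 41 were lower (1.28%), by the same rule of 2-fold and 4 regions. Mbp and Mobp were the 2 called among 10 oligodendrocyte genes, whose median fold was 1.41 beside 0.993 over all genes. None of the 9 genes of mature cells was called, with a median fold of 1.47, and none of the 6 lipid genes, with 1.17. Ccn2, a secreted protein gene that marks the deepest cortical neurons, led with 0.779, 2.59, 4.47 and 1.97 in the lower cells of regions 1 to 4 and 0.128 to 0.397 in the upper, a fold of 9.31 (4.49 to 22.4). In other cells it had 4.33. Rprm had 5.51 against 2.00, a fold of 2.76 (2.08 to 3.70), and 2.72 in other cells, so both neuronal genes rose with depth in all cells. Pacs2, which encodes a sorting protein of the endoplasmic reticulum, had 1.49 against 0.469 in oligodendrocytes (3.17, 1.78 to 5.95) and 1.01-fold in other cells. Wnk1, a kinase that controls chloride cotransporters, likewise had 2.01 against 0.763 (2.64, 1.66 to 4.31) and 1.07-fold. Pacs2 in the lower cells ran from 1.25 to 1.74 over regions, and in the upper cells from 0.257 to 0.820.

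Among the genes lower in the deeper oligodendrocytes, Bhlhe40, a transcription factor of activity and hypoxia responses, was at 0.991 against 3.02 (0.328, 0.216 to 0.487) and had a ratio of 0.537 in other cells. Vstm2a had 0.408 against 1.44 (0.284, 0.145 to 0.522) and 0.715 in other cells. Bcl2l1, which protects from apoptosis, had 0.408 against 1.32 (0.309, 0.157 to 0.573), while other cells had 1.11. Of the 24 higher genes 19 went the same way in other cells, 3 of them past 2-fold, and of the 41 lower genes 31 did, 0 of them past 2-fold. Their median ratios in other cells were 1.107 and 0.889. In oligodendrocytes the medians were 2.325 and 0.4325, which the 2-fold rule in these same cells fixed in advance. These medians therefore cannot be compared between the cells. The share with the same direction over all measured genes is not given, so the 19 and 31 are counts only. The rest of the largest folds were Sel1l3, Dcaf5, Vps50 and Kctd2 on the higher side, at 2.41 to 3.06, and Armcx1, Rhobtb2, Cacng7, Tmem222 and Prex1 on the lower side, at 0.316 to 0.367. Apart from Rprm and Bhlhe40 each of these named genes had fewer than 100 UMIs over both sets.

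**Figure D4:**
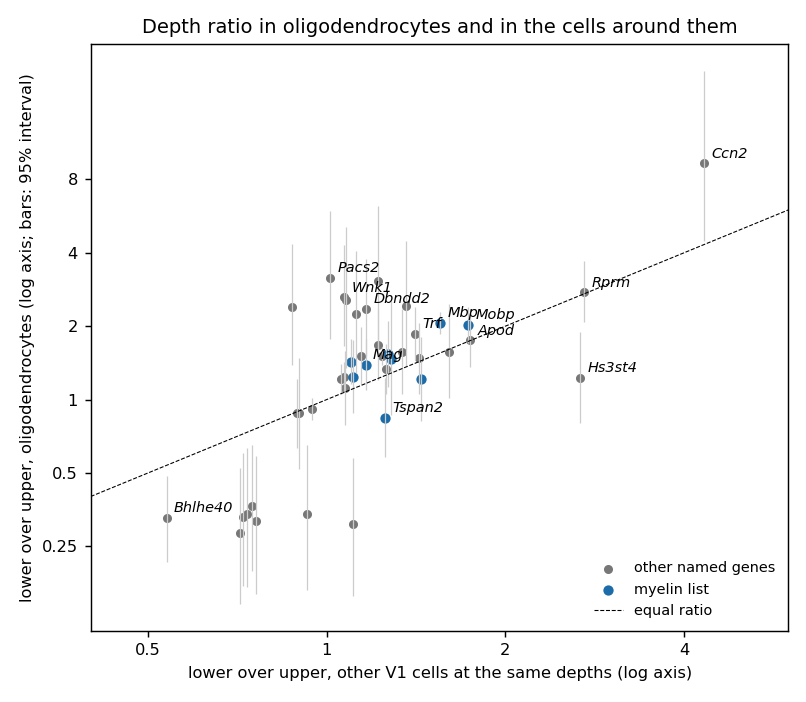
Ratio of a gene's level in lower over upper oligodendrocytes (vertical log axis, bars for 95% counting intervals) against the same ratio in the other V1 cells of the same depths (horizontal log axis), 1 point per gene, with a dashed line where both are equal. Rprm stands at 2.76 against 2.72 near the line, and Mbp at 2.06 (1.86 to 2.29) against 1.55 above it. Pacs2 stands at 3.17 against 1.01 and was named for its large fold in oligodendrocytes.

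Over all regions, distances between oligodendrocytes were shorter than between astrocytes and longer than between L6CT neurons. The median distance from an oligodendrocyte to the nearest other was 19.1 µm (quartiles 13.6 and 35.7), and 21.1, 21.0, 18.1 and 14.96 µm in regions 1 to 4. Of the oligodendrocytes 61.1% (56.6 to 65.5) had another within 25 µm, against 45.9% (41.1 to 50.8) of astrocytes, and the median for astrocytes was 28.6 µm, with 27.5, 21.1, 34.1 and 39.2 µm in regions 1 to 4 and so about the same as for oligodendrocytes in region 2. Among the more numerous L6CT cells 80.2% had another L6CT cell within 25 µm, at a median of 14.8 µm. Within 10 µm the shares were 4.57% (2.89 to 6.84) for oligodendrocytes and 6.29% (4.19 to 9.03) for astrocytes, with intervals that meet. Within 25 µm an oligodendrocyte had 6.53 labelled neighbours, of which 19.6% were oligodendrocytes. Cells of the same regions and depths would give 11.9%, a ratio of 1.65, with 1.91, 1.45, 1.36 and 1.77 in the 4 regions. Astrocytes around astrocytes had a ratio of 2.01, so this was not a property of oligodendrocytes alone. Around oligodendrocytes the ratio was 0.884 for glutamatergic cells, 0.937 for astrocytes, 0.897 for precursors, 0.959 for microglia and 1.12 for endothelial cells, and for precursors the regions ran from 0.403 to 2.16 on 43 cells. Outlines that share RNA with a neighbour can share its label, and the part of that was not tested.

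At a cut of 25 µm, Trf alone of the oligodendrocyte genes set against distance had a higher level beyond counting error in deep neurons near an oligodendrocyte. Deep glutamatergic cells of all depths were divided into 659 with an oligodendrocyte within 25 µm and 1378 without, and the farther cells were weighted to the region and depth of the nearer ones. Trf had a level of 1.56 in the nearer cells and 1.02 in the farther, a ratio of 1.53 (1.24 to 1.89), with 1.34, 2.12, 1.59 and 1.59 in regions 1 to 4. Mbp had 11.5 in the nearer and 11.3 in the farther cells, a ratio of 1.02 (0.95 to 1.10), with 1.01, 1.08, 1.10 and 0.960 in the regions. Mobp had 1.04 (0.928 to 1.17). The interval of Trf lay above those of Mbp and Mobp, and its lowest region above the highest of either. Other cuts were run for Mbp only, where 40 µm gave 1.095 (1.02 to 1.18). Cnp had 1.25 (0.990 to 1.56), Mag 1.20 (0.945 to 1.53) and Mal 1.07 (0.890 to 1.27), too wide to place. Summed over the 11 genes of the myelin list the ratio was 1.07 (1.02 to 1.13), with 1.001, 1.21, 1.17 and 1.03 in the regions. Slc17a7 had 0.987 (0.921 to 1.06), Slc1a2 1.04 (0.970 to 1.11) and Snap25 0.930 (0.886 to 0.977). Over all other V1 cells, 1751 near and 6788 far, Trf had 1.39 (1.23 to 1.58), Mag 1.33 (1.16 to 1.53) and Mal 1.25 (1.13 to 1.39). Mobp had 1.11 (1.03 to 1.19), Mbp 1.06 (1.02 to 1.11) and Cnp 1.13 (0.978 to 1.29). In this wider set Mag, Mal, Mobp and Mbp were thus also higher near an oligodendrocyte beyond counting error. The intervals of Trf and Mag met.

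**Figure D5:**
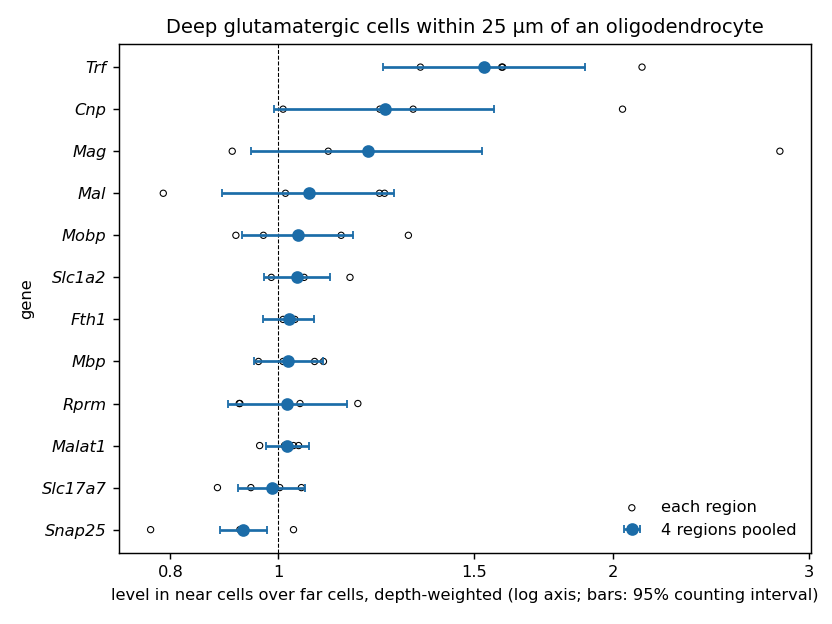
Ratio of level in deep glutamatergic cells within 25 µm of an oligodendrocyte over those farther away, weighted to the same region and depth (log axis), with bars for 95% counting intervals and points for the 4 regions. Trf stands at 1.53, and Mbp and Mobp at 1.02 and 1.04.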

How the data were processed

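Mouse V1 cells of 1 Stereo-seq section were analysed. The authors deposited raw UMI counts per gene and segmented cell, made with the Stereo-seq Analysis Workflow v7.1.2 (adjusted cell outlines, GRCm39), with positions, V1 regions and labels transferred from a single-nucleus atlas. They removed cells under 50 genes or 100 UMIs. The gene annotation version was not given in the sources used here. No doublet caller was run, since an outline can hold RNA of several cells. Genes were named by identifier through GENCODE, which held 61249 of 61317 features and changed 21792 symbols. Counts were summed over cells and given per 10000 UMIs, with exact Poisson, Clopper-Pearson and conditional binomial intervals at 95% (scipy 1.17.1 and numpy 2.4.6, with shapely 2.1.2 for outlines and pandas 2.3.3, under Python 3.11.15), which cover counting error only. Depth ran along the smallest rectangle around each region (2 units per µm). Genes with at least 50 UMIs were called at 2-fold and 1 direction in 4 regions. Named were the listed genes, the 10 largest called folds per direction (8 for depth) or some of them, and the 5 highest-level genes of each list, and others such as Malat1, Meg3 and Dpp10 were chosen after their values were seen. The 128 genes of 13 lists and the cells were chosen with earlier results of these data known. Alternatives changed label rounds, class, filters, folds, distances and regions. Some genes of these lists are not reported here. The calculations were tested on simulated data.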

Additional observations from a re-analysis of the deposited data

Results flagged for a closer look

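Outside the comparisons, 104 further V1 cells carried the OD subclass but the glutamatergic class. Their summed level of the 11 oligodendrocyte genes was 33.4 UMIs per 10000 (30.5 to 36.6), which was 1.57 times (1.42 to 1.72) that of the deep glutamatergic cells and between 1.22 and 1.87 times over the 4 regions. The oligodendrocytes of nonneuronal class exceeded them by 1.59-fold (1.45 to 1.75). Their Slc17a7 level was 13.3 (11.5 to 15.4), and their Malat1 level of 15.1 was near the 14.7 of the oligodendrocytes. The difference was not tested, since the cells come from 1 mouse.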

How the results depend on the processing

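Of 128 alternative values 83 stayed within the counting interval of the reported value, or for counts within 1.5 times of it, and 45 moved. The near-over-far ratio of Mbp, whose interval held 1, was 0.99 (0.88 to 1.11) with a cut at 15 µm and 1.095 (1.02 to 1.18) with a cut at 40 µm, and no other value changed direction. With first-round labels only, the cells were 134, the median depth 0.931 and the share in the deepest 20% from L2/3 to L6 76.1%. The myelin fold was then 4.16 over astrocytes and 3.215 over deep glutamatergic cells. With these labels the genes lower than in the neurons were 258 and the genes differing with depth 19. The distance was 25.02 µm and the Mbp fold with depth 2.38. With every OD-subclass cell the myelin fold over neurons was 2.35. Without Mbp the myelin folds were 3.35 and 2.81. With oligodendrocytes of the same depth range the fold over neurons was 2.19. At 1.5-fold, 3-fold, at least 20 UMIs and at least 200 UMIs the counts were 236, 19, 213 and 12 higher than in astrocytes, 257, 39, 273 and 15 lower, 323, 27, 219 and 22 higher than in neurons, 461, 28, 351 and 57 lower, and 227, 8, 293 and 4 differing with depth. Without cells within 50 µm of an edge the distance was 23.6 µm. Without depth weights the near-over-far ratio of Mbp was 1.21. Thinned to 300 UMIs, the shares of cells with Mbp, Mobp and Mag were 46.1%, 21.0% and 10.3%. The cause of these changes was not tested.

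When regions were omitted singly, values were 2.61 to 3.53 for the myelin fold over astrocytes, 2.32 to 2.64 over neurons, 54.5 to 61.3% for the share in the deepest 20%, 1.75 to 2.34 for Mbp with depth, and 1.00 to 1.05 for the near-over-far ratio of Mbp. The lowest Mbp fold with depth, 1.75, was without region 3. Counts ranged from 64 to 93 and 79 to 108 against astrocytes, 102 to 124 and 163 to 236 against neurons, and 45 to 71 with depth. No paired analysis was possible because there was 1 mouse. The alternatives for the depth fold of Mbp and for the depth weights were chosen after seeing the data. A median of 1393 UMIs per cell leaves genes of few UMIs uncertain.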
